A study of Homo sapiens with 6 samples.

Results

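Expression of 10 genes that gate the entry of cells into S phase was described in MOLM-13, a human acute myeloid leukaemia cell line carrying the MLL-AF9 fusion. The members are the D-type cyclins CCND2 and CCND3, the E-type cyclins CCNE1 and CCNE2, the kinases CDK4 and CDK6, the CIP/KIP inhibitors CDKN1A and CDKN1B, and the INK4 inhibitors CDKN2C and CDKN2D. They were taken by gene symbol, each matching a single row, and make up 10 of the 39771 rows of the expression table. The 6 libraries came from cells that had all received a lentiviral short hairpin RNA and puromycin selection: 2 libraries carried a non-targeting hairpin (shNT 1 and shNT 2) and 4 a hairpin against LAMP5 (shLAMP5 1 to shLAMP5 4). The sources used here do not give the hairpin sequence or the harvest time of any shLAMP5 library, nor whether the libraries stand for separate cultures. The p-values below therefore cover only the spread among these 6 libraries, possibly a technical one, and hairpins or times may be mixed within a group.

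Progress through G1 depends on cyclins binding to kinases. D-type cyclins activate CDK4 and CDK6, which begin the phosphorylation of the retinoblastoma protein RB1 and its relatives, and E-type cyclins with CDK2 complete it, so that E2F transcription factors switch on the genes of DNA replication. CCNE1 and CCNE2 are themselves E2F target genes. INK4 proteins bind CDK4 and CDK6 and keep D-type cyclins out, while CIP/KIP proteins bind cyclin-kinase complexes and block CDK2 in particular. In haematopoietic cells CCND2, CCND3 and CDK6 are the D-type components used most, CDK6 is known as a dependency of MLL-rearranged leukaemia, and CDKN1A (p21) is both a p53 target and a gene induced in myeloid differentiation.

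LAMP5, the gene targeted, measured 170 and 282 TPM (a level corrected for transcript length and library total) in the shNT libraries and between 65.6 and 86.7 TPM in the shLAMP5 libraries, in the direction of the labels (log2 fold change -1.54, limma adjusted p 0.252). Of the 8 markers fixed for the line, which include PTPRC, CD33, SPI1, FLT3 and HOXA9, all 8 were tested. All 6 erythroid and all 5 megakaryocyte markers lay under 1 TPM in every library. Of the T cell markers 4 of 5, and of the B cell markers 4 of 5, also lay under 1 TPM throughout, as did 6 of the 9 fibroblast and packaging cell markers. Two-sided tests used limma on log2(TPM + 1), the scale of every log2 fold change below (shLAMP5 minus shNT), over the 13072 genes that reached 1 TPM in 2 or more libraries, and all 10 members passed that filter. The libraries differed within groups. The median gene of shLAMP5 2 lay 0.18 below the shNT mean on the log2(TPM + 1) scale, and that of the other 5 libraries within 0.051 of it.

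None of the 10 members passed an adjusted p of 0.05 with limma, as for all genes (0%), and their adjusted p ranged from 0.524 to 0.991. At an unadjusted p under 0.05, 1 member (CCNE1) was lower in shLAMP5, where 5.25% of all genes were, and 0 members were higher, where 3.72% of all genes were. Every shLAMP5 library lay below both shNT libraries for 1 member, CCNE1, against 13.5% of all genes, and above both for 1 member, CDKN1A, against 8.25% of all genes. These shares of members are near the background. The log2 fold changes were negative for 7 members and positive for 3, with a median of -0.095, beside -0.006 over all genes tested. The cyclin E genes and CDKN1A had the widest differences, and the groups overlapped for 8 members, CCNE2 among them.

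**Figure D1:**
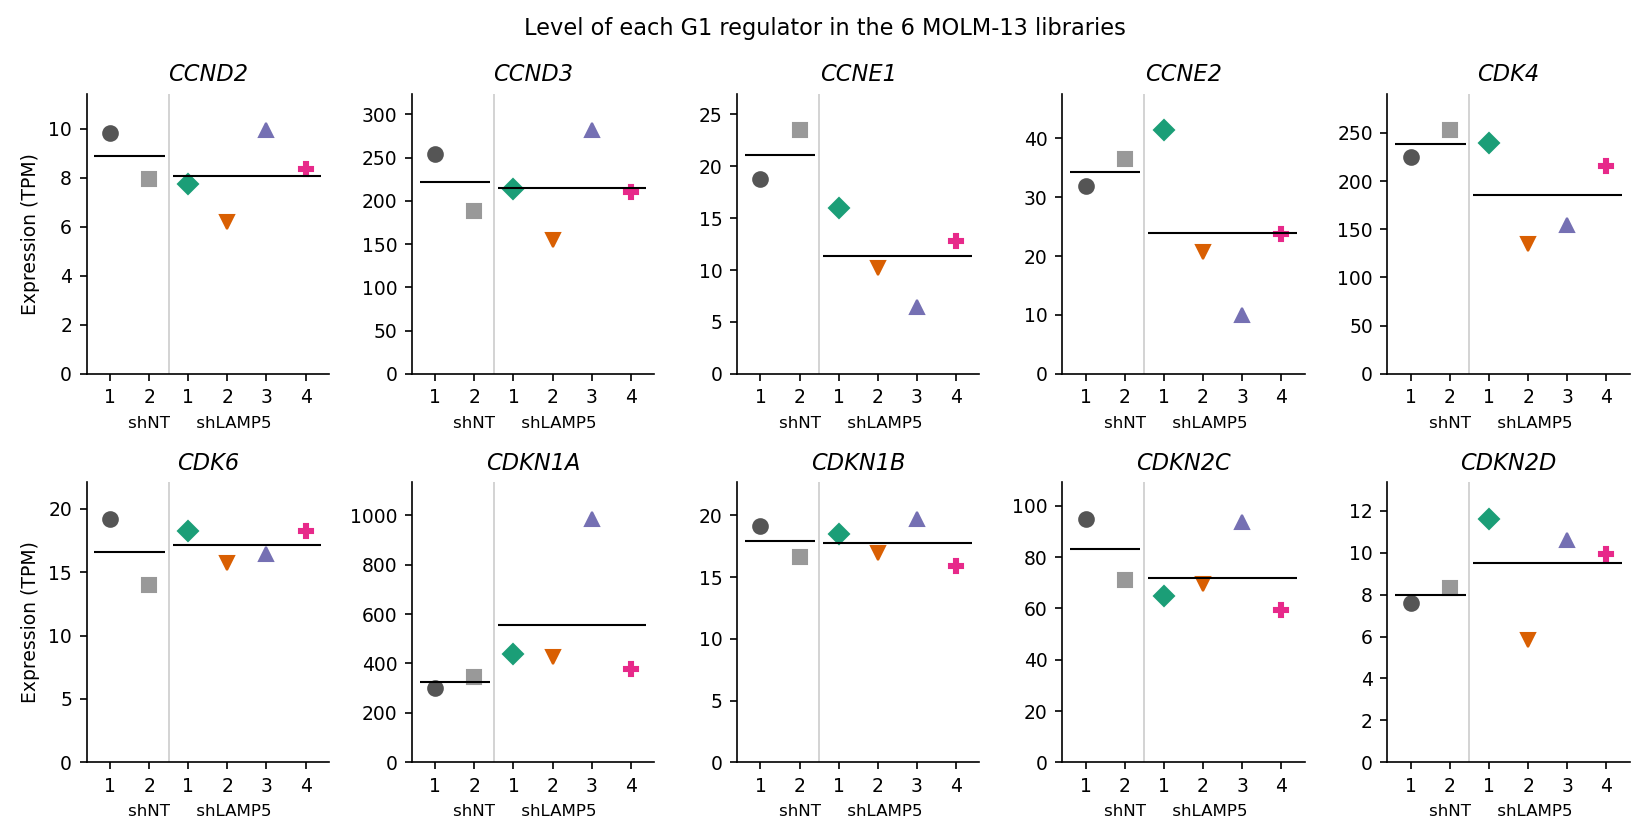
Expression in TPM on linear axes that start at 0, 1 panel per gene, with 1 symbol per library and a horizontal line at the mean of each group. CCNE1 is the panel in which all 4 shLAMP5 libraries lie below both shNT libraries, and CDKN1A the panel in which all 4 lie above them, with shLAMP5 3 far above the rest.

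Promoter sequences of 8 members were found in RefSeq (build GRCh38.p14), with 13 start sites, each as the 250 bases before the start and the 50 after it. Both strands were searched for an E2F core (written TTCCCGC or as TTGGCGC or as TTCGCGC or as TTGCCGC), a CHR element (written TTTGAA or as TTCGAA), an E box (written CACGTG), a GC box (written GGGCGG) and a CCAAT box (written CCAAT). Matches may overlap. The E2F core was found at 1 of the 13 start sites, the second of CDKN2C, and in 13.0% of all 35116 promoters. A CHR element was found at none and in 16.4% of all promoters. An E box was found at 4 start sites, of CDK4, CDK6 and CDKN2C, and in 7.26% of all promoters. A GC box was found at 10 start sites and in 45.0% of all promoters, and a CCAAT box at 5 start sites and in 34.6%. A match is a description of letters and no evidence of binding.

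The 250 bases before the start are shown for the members with the widest differences (CCNE1 and CDKN1A), for CDK4, whose window held 3 E boxes, and for the CDKN2C start with E2F cores. Capitals mark GC boxes in CCNE1 and CDKN1A, E boxes in CDK4 and E2F cores in CDKN2C, in either orientation. The windows lie at chr19:29811741-29811990 (plus strand) for CCNE1, chr6:36678464-36678713 (plus strand) for CDKN1A, chr12:57752311-57752560 (minus strand) for CDK4 and chr1:50968456-50968705 (plus strand) for CDKN2C, and all are written 5′ to 3′ on the strand of the gene.
CCNE1: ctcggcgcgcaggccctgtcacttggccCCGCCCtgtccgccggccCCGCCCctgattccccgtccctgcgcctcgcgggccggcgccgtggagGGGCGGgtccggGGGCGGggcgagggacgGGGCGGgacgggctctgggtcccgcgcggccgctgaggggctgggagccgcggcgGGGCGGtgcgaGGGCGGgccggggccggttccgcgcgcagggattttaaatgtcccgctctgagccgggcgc
CDKN1A: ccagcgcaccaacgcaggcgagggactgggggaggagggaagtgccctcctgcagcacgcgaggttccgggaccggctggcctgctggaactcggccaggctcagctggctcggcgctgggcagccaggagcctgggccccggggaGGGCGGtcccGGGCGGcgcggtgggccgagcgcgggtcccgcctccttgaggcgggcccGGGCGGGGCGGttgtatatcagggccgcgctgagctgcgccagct
CDK4: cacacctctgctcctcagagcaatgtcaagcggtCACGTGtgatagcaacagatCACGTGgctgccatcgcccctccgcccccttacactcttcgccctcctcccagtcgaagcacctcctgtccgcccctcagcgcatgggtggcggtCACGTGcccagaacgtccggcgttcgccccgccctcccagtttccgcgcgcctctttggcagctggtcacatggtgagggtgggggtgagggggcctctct
CDKN2C: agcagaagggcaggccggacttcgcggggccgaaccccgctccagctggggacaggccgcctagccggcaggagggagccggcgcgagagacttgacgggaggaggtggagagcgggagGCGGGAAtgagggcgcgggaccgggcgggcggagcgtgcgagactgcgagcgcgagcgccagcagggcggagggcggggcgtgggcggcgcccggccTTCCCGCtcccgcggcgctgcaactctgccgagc
CCNE1 held 7 GC boxes and CDKN1A 4, of which the last 2 overlap by a base. The E boxes of CDK4 began at positions -216, -196 and -101, counted from the start site, and the E2F cores of CDKN2C at -131 and -34. No E2F core letters were found in the window of CCNE1, which says only that they are not in these 300 bases.

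The cyclin E genes had the most negative differences. CCNE1 (ENSG00000105173), a regulatory subunit of CDK2, measured 18.8 and 23.5 TPM in shNT 1 and 2, and 16.0, 10.2, 6.45 and 12.8 TPM in shLAMP5 1 to 4. The groups did not overlap, and shLAMP5 3 was the lowest library. From a mean of 21.1 ± 3.35 TPM (SD, n = 2) in shNT, CCNE1 stood at 11.4 ± 4.05 TPM (SD, n = 4), or 53.8%, in shLAMP5. On the log2 scale this was -0.89 with an SE of 0.33 and a 95% interval from -1.65 to -0.14 (limma adjusted p 0.524). The exact two-sided permutation p was 0.133, where the smallest value that 2 against 4 libraries can give is 0.0667.

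CCNE2 (ENSG00000175305), the other cyclin E, measured 31.9 and 36.5 TPM in shNT and 41.4, 20.8, 10.0 and 23.7 TPM in shLAMP5 1 to 4. Here shLAMP5 1 was the highest of all 6 libraries while the other 3 shLAMP5 libraries lay below both shNT libraries, so the groups overlapped. CCNE2 had a log2 fold change of -0.65 (SE 0.46, 95% interval -1.71 to 0.41, limma adjusted p 0.695), and it was -0.31 without shLAMP5 3 and -0.96 without shLAMP5 1. Together the E cyclins summed to 50.7 and 60.0 TPM in shNT and to 57.4, 31.0, 16.5 and 36.5 TPM in shLAMP5 1 to 4. CCNE2 supplied more than CCNE1 in every library, between 60.8% and 72.1% of the sum, and its share was highest in shLAMP5 1.

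CCNE2 shares annotated exon sequence with INTS8, an Integrator complex subunit gene on the opposite strand, and no source used here says that strand was used in quantification. INTS8 stood at 71.1 and 82.3 TPM in shNT and at 92.9, 48.2, 55.8 and 89.9 TPM in shLAMP5 1 to 4. It was highest in shLAMP5 1, the library in which CCNE2 was also highest. The INTS8 to CCNE2 ratio was between 2.22 and 2.32 in both shNT libraries and in shLAMP5 1 and 2, and 5.56 and 3.79 in shLAMP5 3 and 4. Reads of the 2 genes in the shared stretch cannot be told apart without strand.

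The D-type cyclins did not separate the groups. CCND3 (ENSG00000112576), the main D-type cyclin here, measured 254 and 188 TPM in shNT and 213, 155, 282 and 211 TPM in shLAMP5 1 to 4. Both the highest and the lowest library were shLAMP5 libraries. Its log2 fold change was -0.056 (SE 0.26, 95% interval -0.66 to 0.55, limma adjusted p 0.968), with a sign that turned under quantile normalization (0.044). CCND2 (ENSG00000118971), which also activates CDK4 and CDK6, measured 9.81 and 7.93 TPM in shNT and 7.73, 6.19, 9.94 and 8.35 TPM in shLAMP5 1 to 4. Its log2 fold change was -0.13 (95% interval -0.66 to 0.39, limma adjusted p 0.891).

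CCND2 and CCND3 followed the same order of libraries closely, with a Pearson r of 0.96 over the 6 libraries, points that share library and group. CCND3 held between 96.0% and 96.6% of the D cyclin sum in each library. CCND1, the third D-type cyclin and not a member, lay between 2.56 and 5.98 TPM. A level in these bulk libraries cannot tell fewer cells in a given phase from less RNA per cell.

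CDK4 (ENSG00000135446) was the more abundant of the kinases that D-type cyclins activate. It measured 225 and 253 TPM in shNT and 239.8, 134, 155 and 216 TPM in shLAMP5 1 to 4. Lowest were shLAMP5 2 and shLAMP5 3, while shLAMP5 1 lay between the shNT libraries. CDK4 differed by -0.40 on the log2 scale (SE 0.26, 95% interval -1.01 to 0.22, limma adjusted p 0.684), and it was -0.25 without shLAMP5 2 and -0.067 without both shLAMP5 2 and shLAMP5 3. After scaling each library to the same median, shLAMP5 2 still lay 0.64 below the shNT mean on the log2 scale and shLAMP5 3 likewise 0.64.

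CDK6 (ENSG00000105810), the kinase most tied to blood cells, measured 19.2 and 14.0 TPM in shNT and 18.2, 15.7, 16.5 and 18.2 TPM in shLAMP5 1 to 4. All 4 shLAMP5 libraries lay between the shNT libraries. Its log2 fold change was 0.058 (SE 0.20, 95% interval -0.41 to 0.52, limma adjusted p 0.956), or -0.16 without shNT 2. The CDK4 to CDK6 ratio, in TPM and so per length, was 11.7 and 18.1 in shNT and 13.2, 8.53, 9.39 and 11.8 in shLAMP5 1 to 4. It was lowest in shLAMP5 2 and 3, and the groups overlapped.

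Both kinase genes also have partners on the opposite strand. CDK4 overlaps TSPAN31, a tetraspanin gene, which stood at 19.0 and 20.2 TPM in shNT and at 33.9, 22.6, 37.4 and 32.8 TPM in shLAMP5 1 to 4. TSPAN31 was thus higher in every shLAMP5 library than in both shNT libraries, as were 8.25% of all genes, while CDK4 was not. The CDK4 to TSPAN31 ratio was 11.8 and 12.5 in shNT against 4.13 to 7.06 in shLAMP5. CDK6 overlaps the noncoding gene CDK6-AS1, which measured 26.5 and 23.4 TPM in shNT and 19.3, 22.6, 19.1 and 18.3 TPM in shLAMP5 1 to 4. It was lower in each shLAMP5 library than in shNT, as were 13.5% of all genes. CDK6-AS1 was at least as high as CDK6 in every library, with a CDK6-AS1 to CDK6 ratio between 1.01 and 1.67. How the reads in these shared stretches were divided was not tested.

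**Figure D2:**
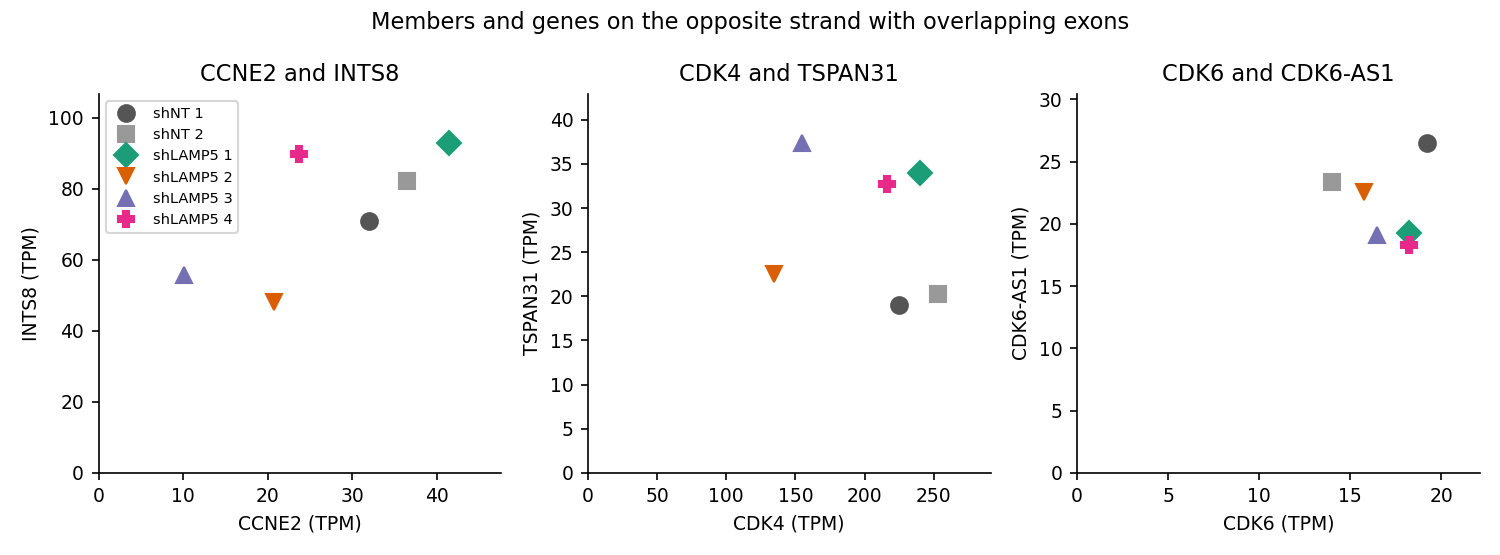
Level of a member (x axis, TPM) against the level of the gene on the opposite strand whose annotated exons overlap it (y axis, TPM), 1 symbol per library. The TSPAN31 values of shLAMP5 all exceed those of shNT, whereas the INTS8 values of the groups overlap and the CDK6-AS1 values of shLAMP5 are the lower ones.

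CDKN1A (ENSG00000124762), encoding p21, was the most abundant member and the one with the most positive difference. It measured 302 and 345 TPM in shNT and 440.1, 425, 986 and 377 TPM in shLAMP5 1 to 4. Each shLAMP5 value was above each shNT value, and shLAMP5 3 held more than any other library by a wide margin. CDKN1A averaged 324 ± 30.4 TPM in shNT (SD, n = 2), and 557 ± 287 TPM, 172% of that, across shLAMP5 (SD, n = 4). Its log2 difference of 0.67 had an SE of 0.37 and a 95% interval from -0.19 to 1.53 (limma adjusted p 0.620, exact two-sided permutation p 0.267). Without shLAMP5 3 it was 0.36, and the remaining shLAMP5 libraries still lay above both shNT libraries.

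CDKN1B (ENSG00000111276), encoding p27, the other CIP/KIP inhibitor measured here, had nearly the same level throughout. It stood at 19.2 and 16.6 TPM in shNT and at 18.5, 16.9, 19.7 and 15.9 TPM in shLAMP5 1 to 4. Its log2 fold change was -0.012 (SE 0.19, 95% interval -0.45 to 0.42, limma adjusted p 0.991), with a sign that turned under median scaling (0.0039) and quantile normalization (0.0063). The CDKN1A to CDKN1B ratio was 15.8 and 20.8 in shNT and 23.8, 25.1, 49.99 and 23.8 in shLAMP5 1 to 4. All 4 shLAMP5 ratios lay above both shNT ratios. CDKN1C, the third CIP/KIP gene and not a member, was low, from 0.193 to 3.44 TPM, and highest in shLAMP5 2 and 3.

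Among the INK4 inhibitors CDKN2C (ENSG00000123080, p18) was the main gene. It measured 95.04 and 71.01 TPM in shNT and 64.7, 69.7, 93.7 and 59.5 TPM in shLAMP5 1 to 4. Of these, shLAMP5 1, 2 and 4 lay below both shNT libraries and shLAMP5 3 lay between them. CDKN2C differed by -0.21 (SE 0.24, 95% interval -0.77 to 0.35, limma adjusted p 0.824), and leaving out 1 library at a time gave -0.42 (without shNT 2) to -0.0038 (without shNT 1). CDKN2D (ENSG00000129355, p19) measured 7.62 and 8.33 TPM in shNT and 11.6, 5.84, 10.6 and 9.92 TPM in shLAMP5 1 to 4. Here shLAMP5 2 was the lowest library and the other 3 shLAMP5 libraries lay above both shNT libraries. CDKN2D differed by 0.19 (SE 0.27, 95% interval -0.44 to 0.82, limma adjusted p 0.869). It was 0.38 without shLAMP5 2 and 0.089 without shLAMP5 1.

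The remaining INK4 genes, CDKN2A (p16 and p14ARF) and CDKN2B (p15), were listed at 0 in all 6 libraries, as were 12091 rows of the table. Their neighbour CDKN2A-DT was also listed at 0 throughout. CDKN2B-AS1 was listed at 0 except for 0.343 TPM in shNT 1 and 0.0129 TPM in shLAMP5 4. MTAP, the next protein-coding gene to CDKN2A in the RefSeq order of chromosome 9, lay between 5.601 and 11.6 TPM. KLHL9 lay between 4.11 and 5.25 TPM. CDKN2C therefore supplied between 84.8% and 92.6% of the summed TPM of CDKN2C and CDKN2D. That sum was 0.421 and 0.297 of the CDK4 and CDK6 sum in shNT, and 0.296, 0.504, 0.610 and 0.297 of it in shLAMP5 1 to 4. The 2 highest of these ratios were in shLAMP5 2 and 3, the libraries with the least CDK4.

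**Figure D3:**
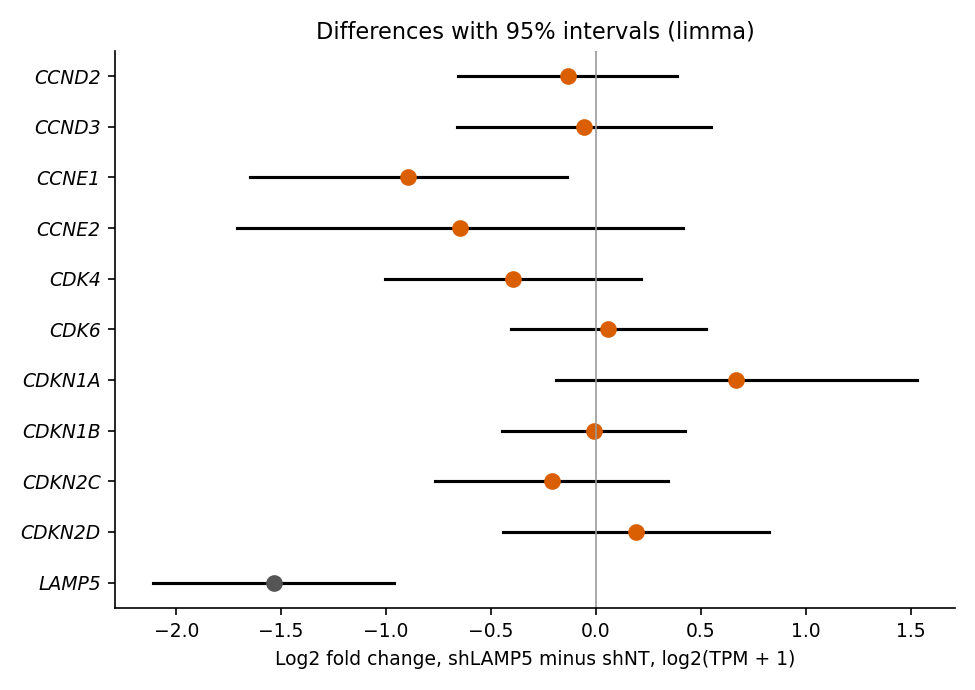
Log2 fold change of each member and of LAMP5 (x axis, shLAMP5 minus shNT on log2(TPM + 1)), with points at the estimate and lines over the 95% interval of limma. The interval of CCNE1 lies below 0, as does that of LAMP5, and those of the other 9 members include 0.

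Ordered by level, the members kept nearly the same places in both groups. In shNT the order was CDKN1A, CDK4, CCND3, CDKN2C, CCNE2, CCNE1, CDKN1B, CDK6, CCND2 and CDKN2D. The shNT values of CDK4 and CCND3 overlapped, as did those of CDKN1B and CDK6 and those of CCND2 and CDKN2D, so these neighbours do not differ beyond their spread. CCNE1 overlapped CDKN1B and CDK6 as well, since its lower value of 18.8 TPM lay under their higher ones. In shLAMP5 CCNE1 stood at place 8 instead of 6, behind CDKN1B and CDK6, and the pairs CDK4 and CCND3, and CCND2 and CDKN2D, changed places within overlapping values.

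The libraries showed distinct profiles over the members. ShLAMP5 3 held the highest value of 4 members (CCND2, CCND3, CDKN1A and CDKN1B) and the lowest of 2 (CCNE1 and CCNE2). After median scaling it held the highest of 2 (CCND3 and CDKN1A) and the lowest of 3 (CDK4 in addition). On the log2(TPM + 1) scale it lay 1.56 and 1.67 below the shNT mean for CCNE1 and CCNE2 and 1.61 above it for CDKN1A. ShLAMP5 2 held the lowest value of 4 members (CCND2, CCND3, CDK4 and CDKN2D), of 3 after median scaling, and the highest of none. ShLAMP5 1 was the closest to shNT for the E cyclins and CDK4, with differences from the shNT mean of -0.37 for CCNE1, 0.27 for CCNE2 and 0.0083 for CDK4.

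**Figure D4:**
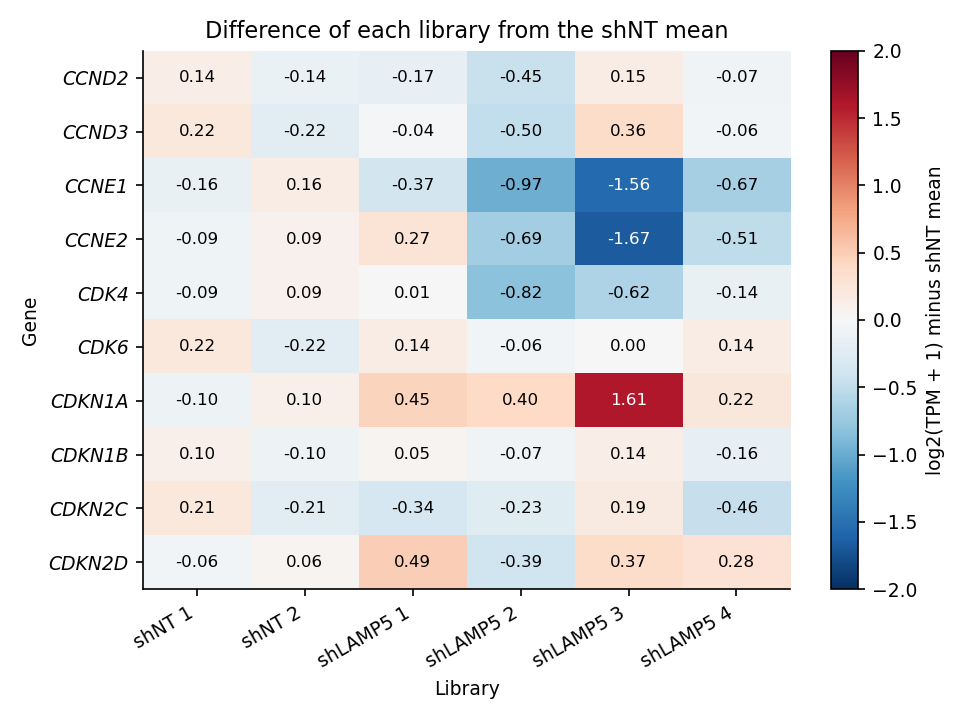
Difference of each library (columns) from the shNT mean on the log2(TPM + 1) scale for each member (rows), with blue below and red above the mean. The cyclin E genes in shLAMP5 3 (-1.56 and -1.67) and CDKN1A in the same library (1.61) are the cells farthest from 0.

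Across the 6 libraries CCNE1 and CDKN1A ran in opposite directions, with a Pearson r of -0.86. CCNE1 ran with CCNE2 (r = 0.92) and with CDK4 (r = 0.84), and CDK6 with neither list of cell cycle genes given below (r = -0.05 and -0.01). These values describe 6 points that share library and group, and no p is given. The genes with a mean of at least 10 TPM whose profile was most like that of CCNE1 were MIX23, FAM111A and NUP107 (r between 0.9966 and 0.9978). Those most like CDKN1A were TFEB, JDP2 and GCLC (r between 0.987 and 0.991), and those most like CDK4 were HDAC2, CCT6A and GTF2A2 (r between 0.9963 and 0.9988). For CDK6 the highest values were lower, with PIGY, ACSL1 and NECAP1 at r between 0.889 and 0.933. All these genes were the best matches of a search over many genes with 6 points. High r values could thus arise from the search alone, and the difference between CDK6 and the others was not tested.

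Downstream of the members, the E2F target genes of S phase entry (MCM helicase subunits, PCNA, nucleotide synthesis enzymes) had lower values in shLAMP5. Of 17 tested, all 17 had negative log2 fold changes with a median of -0.96, and all 17 had every shLAMP5 library below both shNT libraries, beside 13.5% of all genes. With limma 0 passed an adjusted p of 0.05 and 15 were lower under an unadjusted 0.05, where 5.25% of all genes were. For ORC1, of the origin recognition complex, the shNT mean was 26.2 ± 1.59 TPM (SD, n = 2) and the shLAMP5 mean 10.2 ± 2.87 TPM (SD, n = 4). Those of MCM2, a helicase subunit, were 80.5 ± 12.4 and 29.6 ± 9.50 TPM. Averaged over the list, log2(TPM + 1) was 6.35 and 6.54 for shNT 1 and 2, then 5.89, 5.42, 4.79 and 5.63 for shLAMP5 1 to 4. The libraries took the same order in this mean as in CCNE1 (Pearson r 0.99, Spearman rho 1.00 over 6 libraries).

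Of the 12 G2 and M phase genes, all 12 had negative values (median -1.05, beside -0.006 over all genes tested). All 12 lay lower in every shLAMP5 library than in both shNT libraries, beside 13.5% of all genes. TOP2A, a DNA topoisomerase, stood at -1.35 and PLK1, a mitotic kinase, at -1.06 (limma adjusted p 0.387 and 0.440). Both lists hold genes of dividing cells, and the share of cells in each phase was not measured. A pattern of lower proliferation genes was known from an earlier look at these data and is not independent support here.

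In the RB and E2F family, 11 of 13 genes tested had negative values, with a median of -0.38, and 7 lay below both shNT libraries in every shLAMP5 library, again beside 13.5% of all genes. The genes of this list with the smallest p were E2F8, a repressor (-1.02, limma adjusted p 0.478), and E2F1, an activator (-0.96, adjusted p 0.524). The positive genes were TFDP2 (0.032) and RBL2 (0.0094), both near 0. RB1 measured 39.4 and 40.2 TPM in shNT and 37.2, 31.2, 45.5 and 40.1 TPM in shLAMP5 1 to 4. Of 7 genes of the DREAM and MuvB complexes, which repress and later activate cell cycle genes, all 7 had negative values (median -0.48). The list was led by FOXM1 (-1.50, limma adjusted p 0.366) and MYBL2 (-1.36, adjusted p 0.505), while MYBL1 (-0.001) was near 0. Of the 7, 5 lay below both shNT libraries in every shLAMP5 library, beside 13.5% of all genes.

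Among 22 further G1/S regulators tested, 16 had negative and 6 positive values with a median of -0.10 (-0.23 without shNT 2), and 8 lay below both shNT libraries in every shLAMP5 library, beside 13.5% of all genes. CDK2, the partner kinase of the E cyclins, measured 43.4 and 48.8 TPM in shNT and 26.6, 20.9, 14.0 and 21.4 TPM in shLAMP5 1 to 4. All 4 shLAMP5 libraries were lower than both shNT libraries, and the log2 difference of -1.15 (SE 0.26, limma adjusted p 0.491) was wider than that of any member. CKS1B, which helps SKP2 recognise CDKN1B for destruction, had -0.97 (limma adjusted p 0.505). The positive members with the smallest p were CDKN1C (0.56) and the kinase chaperone CDC37 (0.075). None of the 22 passed the adjusted threshold.

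Of 18 p53 target genes beside CDKN1A, 16 had positive values with a median of 0.36 (0.22 without shLAMP5 3), and 4 lay above both shNT libraries in every shLAMP5 library, beside 8.25% of all genes. With limma 0 passed the adjusted threshold and 2 were higher under an unadjusted 0.05, where 3.72% of all genes were. These 2 were FAS, a death receptor (0.79, limma adjusted p 0.505), and TP53INP1 (1.09, adjusted p 0.534). On the negative side stood DDB2 (-0.086) and RRM2B (-0.049). Averaged over this list, log2(TPM + 1) stood at 4.505 and 4.75 for the shNT libraries and at 4.92, 4.70, 5.44 and 4.99 in shLAMP5 1 to 4, highest in shLAMP5 3 as was CDKN1A, and the groups overlapped. Monocyte and macrophage markers were positive as well, all 11 of the 11 tested (of 12 listed), with a median of 1.16, and 6 had every shLAMP5 library above both shNT libraries. Their mean log2(TPM + 1) did not overlap between the groups, at 5.79 and 5.74 for shNT 1 and 2 against 6.90, 6.08, 7.53 and 6.95 for shLAMP5 1 to 4. The summed level, most of which was LYZ, did overlap, at 2639 and 6818 TPM for shNT and between 2326 and 11694 TPM for shLAMP5. None of the 12 was at 0 throughout. The part of these genes in the CDKN1A difference was not tested.

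Of 18 tested genes in the list named inputs to G1, which also holds targets such as TSC22D3, 11 were positive and 7 negative. Their median was 0.15, or 0.32 once shLAMP5 2 was left out and 0.070 once shNT 2 was. MXD1, a MYC antagonist, stood at 0.74 and CEBPE, a myeloid transcription factor, 0.48 (limma adjusted p 0.533 and 0.552). MYC measured 243 and 305 TPM in shNT and 256, 143, 165 and 273 TPM in shLAMP5 1 to 4, which gives -0.43 on the log2 scale (limma adjusted p 0.690), and AKT1 had -0.30 (adjusted p 0.695). MYC was lowest in shLAMP5 2 and 3, the libraries in which CDK4 was also lowest. The median over all genes tested was lowest in shLAMP5 2 as well, and a link between MYC and CDK4 was not tested.

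**Figure D5:**
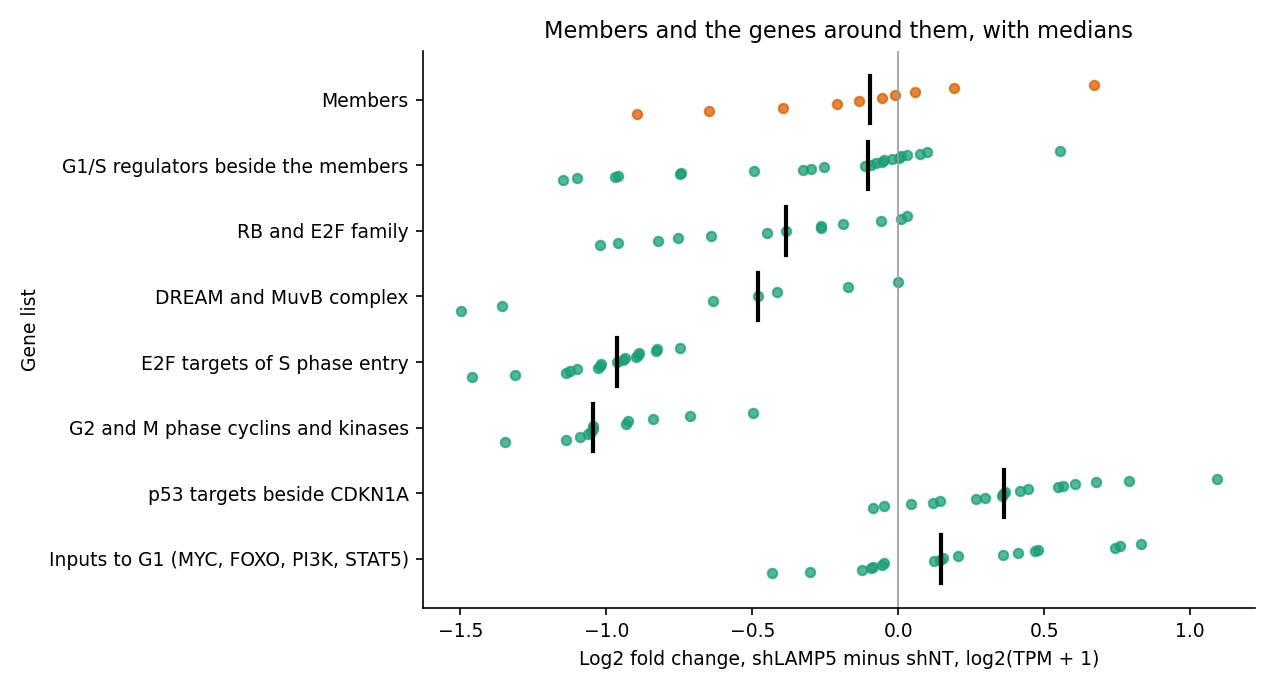
Log2 fold change (x axis, shLAMP5 minus shNT on log2(TPM + 1)) of the 10 members and of the tested genes of 7 lists around them (y axis), 1 point per gene, with a black line at the median. The members spread around 0 (median -0.095), while all 17 E2F targets and all 12 G2 and M phase genes lie below 0.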

How the data were processed

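RNA of 6 MOLM-13 libraries was sequenced (TruSeq RNA kit, HiSeq instrument, per the labels' protocols). The authors deposited a table of 39771 Ensembl identifiers whose values were read as TPM, since no source names the unit, the values hold decimals and each library adds up to 897026 to 912565. The tool kallisto and the build hg19 are named per the submitters' processing notes. The sources used here give no versions, transcript set, gene summary step or filters. Read numbers cannot be had from TPM, so depth is unknown and no counting interval was made. Symbols were matched for 29895 rows.

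Groups were taken from the titles. The test was limma (version 3.58.1, R 4.3.3) with its trend option, fitted to log2(TPM + 1) of the 13072 genes that reached 1 TPM in 2 or more libraries, with Benjamini-Hochberg adjustment over them and a threshold of 0.05. It was checked on simulated data with the same independent noise for every gene and no library-wide shift, a simpler case than these libraries. For each member all 15 assignments of the group labels gave an exact two-sided permutation p. The members, the lists and the naming rule were chosen with earlier results of these data known. The rule took LAMP5, the members, the 2 genes of each list with the smallest p in each direction, and the 3 genes most correlated with each member. CDKN2A, CDKN2B and the other values outside it were named after they were seen. LIN37, UHRF1 and TRAC of the lists were not matched. Opposite-strand partners came from GENCODE release 29. A planned comparison of protein sequences was not run. Titles share the numbers 1 and 2 between groups, and the alternatives tried included that number as a block. Figures used Python 3.11.15 and matplotlib 3.10.9.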

Additional observations from a re-analysis of the deposited data

Results flagged for a closer look

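CDKN1A in the shLAMP5 group stood out because 1 of its 4 libraries lay far from the other 3. On the log2(TPM + 1) scale the gap between shLAMP5 3 (986 TPM) and the next library, shLAMP5 1 (440.1 TPM), was 0.840 of the range of the group, above the 0.829 that Dixon's test allows for 4 samples. Of 11 groups of 4 examined (10 members and LAMP5), 1 was marked in this way, and chance marks about 1 in 20.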

How the results depend on the processing

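Over 17 alternatives, no member passed an adjusted p of 0.05 with limma where it was tested. CCND2 was tested in 16, since it missed the minimum of 10 TPM. CCNE1, CCNE2, CDK4 and CDKN2C kept a negative sign and CDKN1A and CDKN2D a positive one in all 17, and in each CCNE1 lay below and CDKN1A above the shNT libraries kept. The log2 fold change ranged from -1.07 to -0.52 for CCNE1 and from 0.34 to 0.82 for CDKN1A, both nearest 0 without shLAMP5 2 and shLAMP5 3, a removal chosen after seeing the data. The sign turned for CCND3 under quantile normalization (0.044), and for CDKN1B under median scaling (0.0039) and quantile normalization (0.0063). Leaving out 1 library at a time, it turned within ranges of -0.27 to 0.0033 for CCND2, -0.27 to 0.16 for CCND3, -0.16 to 0.27 for CDK6 and -0.11 to 0.086 for CDKN1B. Without turning, CDKN2C ranged from -0.42 to -0.0038 and CDKN2D from 0.089 to 0.38. The cause was not tested. In those runs 1 to 3 members lay wholly below shNT, 1 to 2 wholly above, and 0 to 2 had an unadjusted p under 0.05. Over all genes, 2402 of 12943 lay below without shLAMP5 1, a run with 3 members below. In that run CCNE1 and CCNE2 were lower at an unadjusted limma p under 0.05, as were 837 of all genes, and 465 were higher. Without shLAMP5 2, a run with 2 members above, 2870 of 12769 genes lay above. At an unadjusted limma p under 0.05, CCNE1 was lower in that run, beside 897 of all genes, and CDKN2D higher, beside 1351. Without shNT 2, a run with 3 members below, 2538 of 12958 genes lay below. Without shNT 1, 2 members lay below and 2 above, beside 3296 and 2369 of 12886 genes. With shLAMP5 2 and shLAMP5 3 both removed, 2 members lay below and 2 above, beside 2731 and 3766 of 12504 genes. Where 1 shNT library is left, it is assumed to vary like the shLAMP5 libraries. With the replicate number as a block, 0 members had an unadjusted p under 0.05 (CCNE1 -0.67, CCNE2 -0.21, CDKN1A 0.42, CDKN2D 0.052). Only the numbers 1 and 2 occur in both groups, so the block estimate compares shNT 1 and 2 with shLAMP5 1 and 2 alone. It therefore leaves out shLAMP5 3, and its values cannot be credited to pairing. Same-numbered libraries deviated oppositely from their group means (correlations -0.52 and -0.47). The deviations of 2 shNT libraries mirror each other, so these values cannot show whether the numbers pair libraries. Over all genes, where the main test called 0, the block called 7 higher and 9 lower, library weights 116 higher and 94 lower, and testing without a filter 14 lower. List medians were -1.36 for DREAM and -0.28 for G1/S regulators at a minimum of 10 TPM, where fewer genes are tested, and for inputs to G1 -0.011 with the block and 0.32 without shLAMP5 2. The block also gave 0.18 for p53 targets. Depth is unknown.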

Other observations

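FOXO1, a transcription factor that can raise CDKN1B and that was in the list of inputs to G1, stood at 8.76 TPM in shLAMP5 2 and between 0.550 and 0.852 TPM in the other 5 libraries, so that it missed the filter and was not tested. It was named after its values were seen. TSC22D3, a FOXO and glucocorticoid target in the same list, was also highest in shLAMP5 2, at 101 TPM, against 13.3 to 46.9 TPM elsewhere. CDKN1B in that library was 16.9 TPM, inside the range of the others.

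The ratio of CDKN1A to CCNE1, the inhibitor and the cyclin farthest apart in direction, was 16.1 and 14.7 in shNT and 27.5, 41.7, 153 and 29.5 in shLAMP5 1 to 4. It was chosen after the values were seen and carries no test.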
